A study of Arabidopsis thaliana with 12 samples.

Results

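The 6 genes described here are AKINBETA1, ATL8, PPDK, FDH, ALDH7B4 and SDP1, grouped here under energy shortage and the release of carbon from stored or recycled compounds. The grouping is a label and not a result, and the known roles of the 6 genes differ. They were found as the probe sets for which the array's annotation names only 1 of these genes: 6 of the 22810 probe sets on the array, 1 per gene. By gene, they are 6 of the 13356 that a probe set names alone. They were chosen by their function among genes whose signals were already known to differ between cngc4 and the other genotypes, so every comparison that includes cngc4 is given here as a description with no test. Comparisons of the other genotypes with each other were tested. The ws2, akt1 and cngc1 arrays also took part in that choice, which can shift the values of the 6 genes there too.

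The study measured transcript levels in whole roots of Arabidopsis thaliana on 12 single-colour GeneChips, 3 per genotype, each from 20 to 40 pooled plants at growth stage 3.90. The wild type ws2 is the accession Wassilewskija, and akt1 carries the akt1-1 allele in that accession and lacks the inward potassium channel AKT1. The mutants cngc1 and cngc4 each lack a cyclic nucleotide-gated cation channel, and the labels give them no accession, so a difference of either from ws2 can hold a difference between accessions that cannot be told apart from the mutation. No treatment is named for any genotype, and the series asks which root transcripts change when each channel is lost. As far as the labels say, each mutant is a single line, and nothing says whether the replicates came from separate growths, so a p-value reflects nothing but the spread among these arrays, which may be technical.

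SnRK1 is a protein kinase that is active when sugar and energy run low. It represses growth and switches on genes for the use of other fuels, and it is built from a catalytic alpha, a beta and a gamma subunit. When sugar is short, plant cells also draw on amino acids, fatty acids and organic acids, and several genes of these routes respond to darkness and to sugar supply.

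Levels are signals as deposited, in arbitrary linear units. Fold changes are differences of log2(signal + 16); the added 16 makes the folds of weak probe sets too small. A probe set was tested if at least 3 arrays showed it above their 40th percentile, which 14745 did, all 6 genes among them. Precision is limited by the number of arrays: over all tested probe sets, the typical (median) standard error of a log2 fold was 0.16. The arrays had been scaled alike, with median signals from 43.3 to 48.5. Background (143) and noise (12.9) were highest of the 12 on cngc1 replicate 3. The actin control's 3-prime to 5-prime ratio, a reading of RNA quality, ran from 1.53 to 1.94 in ws2 and from 1.64 to 1.94 in cngc4. It ran from 1.42 to 1.54 in cngc1. Of 7 root markers, PYK10, an abundant beta-glucosidase of roots, had a mean signal of 2780 ± 141 (SD, n = 3) in ws2, and 1 marker, IRX15, was too weak to be tested. The targeted channel genes were not analysed here, so the labels were not checked against them.

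AKINBETA1 (locus AT5G21170, probe set 246028_at) encodes a beta subunit of SnRK1, the part that helps to place the kinase in the cell and to choose its targets. Its signal on the 3 cngc4 arrays was 429.3, 449.6 and 345.1, against 220.2, 177.2 and 206.8 on the ws2 arrays. In akt1 it read 248.6, 155.2 and 206.9, and in cngc1 263.7, 232.6 and 248.9. Every cngc4 array lay above every other array, while the ws2 and akt1 arrays overlapped. The mean was 408 ± 55.4 in cngc4 and 201 ± 22.0 in ws2 (SD, n = 3 each), so cngc4 lay 0.96 ± 0.16 (SE) above ws2 on the log2 scale.

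ATL8 (AT1G76410, probe set 259982_at) encodes a RING-H2 protein of the ATL family, membrane-bound ubiquitin ligases that mark other proteins for breakdown. It had the largest fold of the 6 genes in cngc4, with signals of 347.5, 572.1 and 408.6 against 121.2, 122.7 and 98.9 in ws2. In akt1 the arrays read 181.2, 95.6 and 101.3, and in cngc1 they read 202.0, 201.9 and 126.6. The cngc1 arrays all lay above the ws2 arrays and below the cngc4 arrays, and akt1 spanned the ws2 range with replicate 1 above it. On the log2 scale cngc4 lay 1.79 ± 0.23 (SE) above ws2, from means of 443 ± 116 and 114 ± 13.3 (SD, n = 3 each).

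PPDK (AT4G15530, probe set 245528_at) encodes pyruvate orthophosphate dikinase, which turns pyruvate into phosphoenolpyruvate, the entry point for making sugars and aromatic compounds from recycled carbon. It was the only one of the 6 genes with arrays of low signal: ws2 replicate 3 and cngc1 replicate 3 lay below the 40th percentile of their arrays. The cngc4 arrays read 134.5, 177.6 and 117.2, and the ws2 arrays 50.2, 50.0 and 28.6. In akt1 the signals of 37.0, 34.3 and 37.7 lay close together, and in cngc1 they were 58.2, 66.7 and 10.4, with replicate 3 far below the other two. All cngc4 arrays lay above all others, and the other 3 genotypes overlapped. The log2 difference between cngc4 and ws2 was 1.44 ± 0.32 (SE). Since 1 ws2 signal was low, its size is not exact. With no offset it was 1.76 and with an offset of 64 it was 0.95.

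FDH (AT5G14780, probe set 246595_at) encodes the mitochondrial formate dehydrogenase, which oxidises formate to carbon dioxide and passes the electrons to NAD. Its signal was 185.8, 268.4 and 221.0 in cngc4 and 67.5, 74.0 and 59.1 in ws2. In akt1 it was 94.3, 47.9 and 58.3, and in cngc1 145.4, 84.8 and 72.4. The akt1 arrays lay on both sides of the ws2 arrays, and in cngc1 replicate 1 stood well above the other two. The means were 225 ± 41.5 in cngc4 and 66.9 ± 7.47 in ws2 (SD, n = 3 each), a log2 difference of 1.53 ± 0.22 (SE).

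ALDH7B4 (AT1G54100, probe set 263157_at) encodes an aldehyde dehydrogenase, known in Arabidopsis to rise under salt and drought, that removes reactive aldehydes such as those from lipid damage. The cngc4 signals were 985.8, 1379.3 and 875.0, and the ws2 signals 421.3, 438.5 and 367.4. The akt1 arrays read 583.2, 382.2 and 423.9, and the cngc1 arrays 538.0, 604.2 and 380.0. The cngc4 arrays did not overlap with those of any genotype, and for ALDH7B4 those of ws2, akt1 and cngc1 overlapped with each other. Mean signals of 1080 ± 265 in cngc4 and 409 ± 37.1 in ws2 (SD, n = 3 each) gave a log2 difference of 1.34 ± 0.20 (SE).

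SDP1 (AT5G04040, probe set 250877_at) encodes the lipase that starts the breakdown of storage oil, best known from germinating seeds. Its difference was the smallest of the 6 genes, with cngc4 signals of 162.8, 209.7 and 174.5 against 105.5, 117.7 and 130.6 in ws2. In akt1 the signals were 103.8, 100.3 and 111.3, and in cngc1 they were 112.8, 110.8 and 93.9. SDP1 was the only one of the 6 genes for which ws2 had the second highest mean, though it overlapped with akt1 and cngc1. The means were 182 ± 24.4 in cngc4 and 118 ± 12.6 in ws2 (SD, n = 3 each), a log2 difference of 0.56 ± 0.13 (SE). Among arrays whose titles carry no repeat mark (1 ws2 and 2 cngc4) it was 0.77, and among marked arrays (2 ws2 and 1 cngc4) it was 0.35. The related gene SDP1-LIKE (AT3G57140) had signals from 15.0 to 30.2 on the 12 arrays, below the 40th percentile of each array, and was not tested.

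**Figure D1:**
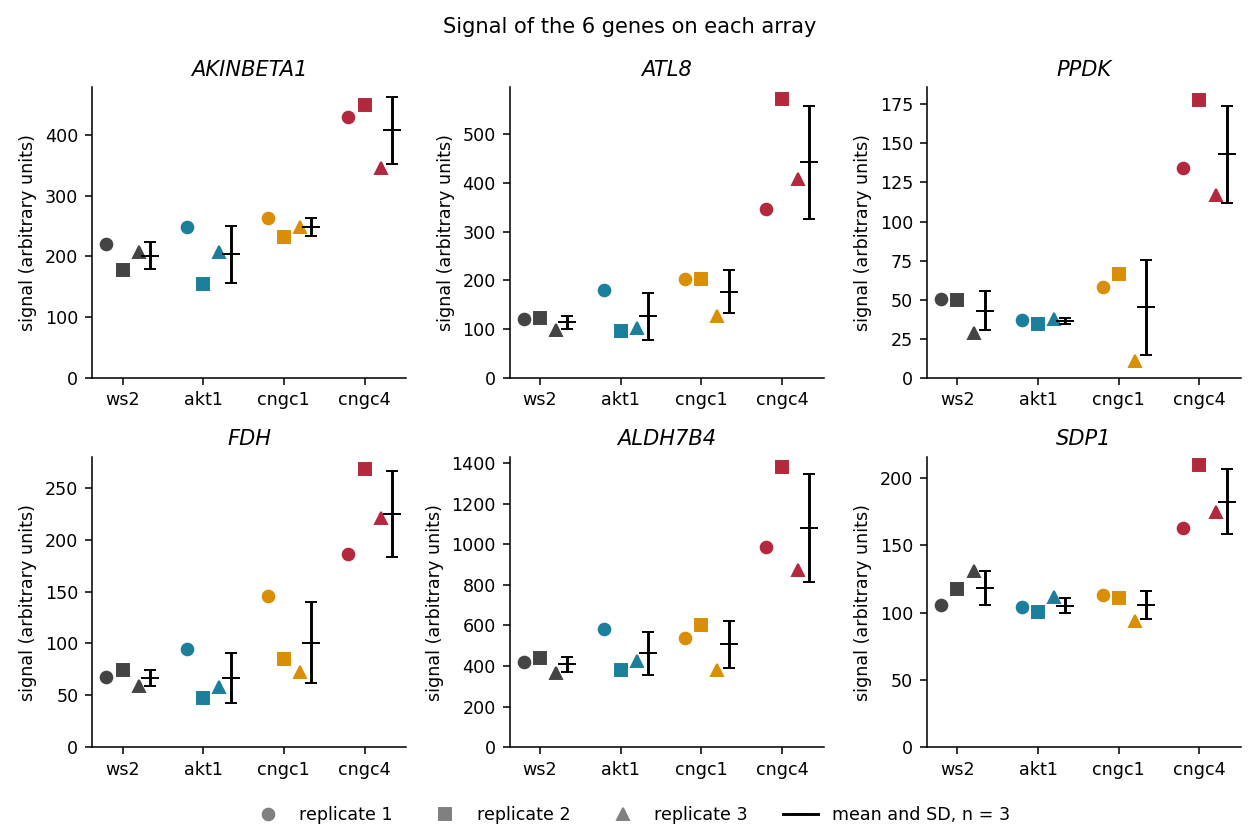
Signal in arbitrary units of each of the 6 genes on each array, with 1 panel per gene; the symbols are replicates 1 to 3 and the bar is the mean and SD of 3 arrays. In each panel the 3 cngc4 arrays lie above all arrays of the other genotypes, as for AKINBETA1 with 345.1 as its lowest cngc4 signal and 263.7 as its highest elsewhere.

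Ordered by mean signal, cngc4 was highest for each of the 6 genes and did not overlap with the genotype next below it. That genotype was cngc1 for 5 genes and ws2 for SDP1. All pairs of neighbours further down the order overlapped for every gene. Against ws2, all 6 genes were higher in cngc4 with no overlap of arrays, as were 15% of the probe sets tested. All 6 were among the 692 probe sets, 4.69% of those tested, that limma called higher at an adjusted p under 0.05, but the genes were chosen with this comparison known, so these counts are no evidence about them. Their median log2 fold change was 1.39, beside -0.03 over all probe sets tested. Centring each array on its median turned the 692 higher and 648 lower calls of all probe sets into 804 and 481.

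The median difference of cngc4 from akt1 was of like size to that from ws2. Differences from cngc1 were smaller than those from ws2 for AKINBETA1, ATL8, FDH and ALDH7B4, and larger for PPDK and SDP1. All these comparisons share the cngc4 arrays. Against akt1 the log2 fold changes ran from 0.71 for SDP1 to 1.71 for ATL8, with a median of 1.38. All 6 genes were non-overlapping and higher, as were 14.5% of the probe sets tested, and all were among the 4.54% called higher (8.88% in either direction). Against cngc1 they ran from 0.67 for AKINBETA1 to 1.53 for PPDK, with a median of 1.07, where 11.8% of probe sets were non-overlapping and higher and 3.23% were called higher (5.17% in either direction). The PPDK value against cngc1 rested in part on the low signal of cngc1 replicate 3: without that array it was 1.00.

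In cngc1, none of the 6 genes passed the test against ws2, while 4 of them had positive log2 fold changes, as did 52.5% of all probe sets. Limma called 1 probe set in this comparison, 0.00678% of those tested, and the smallest adjusted p among the 6 genes was 0.646, for ATL8. ATL8 had a log2 fold change of 0.54 (95% interval 0.05 to 1.03), and its unadjusted p of 0.032 was the only one of the 6 under 0.05 by limma, as it was for 7.32% of all probe sets. Its cngc1 and ws2 arrays did not overlap, nor did those of AKINBETA1 (0.29, interval -0.06 to 0.63); 6.98% of all probe sets were non-overlapping and higher in cngc1. FDH (0.45, interval -0.03 to 0.93) and ALDH7B4 (0.28, interval -0.15 to 0.71) overlapped with ws2. SDP1 (-0.14, interval -0.41 to 0.14) and PPDK (-0.09, interval -0.76 to 0.58) had negative values, and the PPDK value was 0.43 without cngc1 replicate 3. The median over the 6 genes was 0.28, beside 0.01 over all probe sets tested. Since the ws2 arrays took part in the choice of the genes, these values are not free of that choice. The GAPDH ratio of 3-prime to 5-prime signal ran from 1.12 to 1.24 in cngc1 and from 1.03 to 1.09 in ws2; its part in these values was not tested.

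In akt1, none of the 6 genes passed the test against ws2 either, and their arrays overlapped with ws2 for every gene. Limma called 0 probe sets (0%) in this comparison, none of the 6 genes had an unadjusted p under 0.05, as 5.06% of all probe sets did, and 4.37% of all probe sets were non-overlapping and higher. The log2 fold changes ran from -0.15 for PPDK to 0.15 for ALDH7B4, with a median of -0.02. The intervals bound the size of any difference: for AKINBETA1 from -0.35 to 0.34, for ATL8 from -0.41 to 0.57, for FDH from -0.51 to 0.44 and for SDP1 from -0.41 to 0.13. For PPDK the interval was wider, from -0.82 to 0.52. For ALDH7B4 it ran from -0.28 to 0.58.

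The comparison of cngc1 with akt1 uses neither the cngc4 nor the ws2 arrays as a group, though all arrays share the estimate of spread. All 6 log2 fold changes were positive, from 0.01 for SDP1 to 0.49 for FDH, as were those of 54.3% of all probe sets. Those of SDP1, PPDK and ALDH7B4 changed sign in 6, 3 and 1 of 25 alternative settings. None of the 6 genes passed: limma called 1 probe set (0.00678%), and the smallest adjusted p among the 6 was 0.437. No gene was free of overlap between the 2 mutants, while 9.01% of all probe sets were non-overlapping and higher. FDH had an unadjusted p of 0.0458 by limma (log2 fold change 0.49, interval 0.01 to 0.96), as 11.2% of all probe sets had one under 0.05, and ATL8 followed with 0.46 (interval -0.03 to 0.95). The median over the 6 genes was 0.21, beside 0.02 over all probe sets tested. The actin ratio ran from 1.58 to 2.06 in akt1, above every cngc1 array; its part in these values was not tested.

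**Figure D2:**
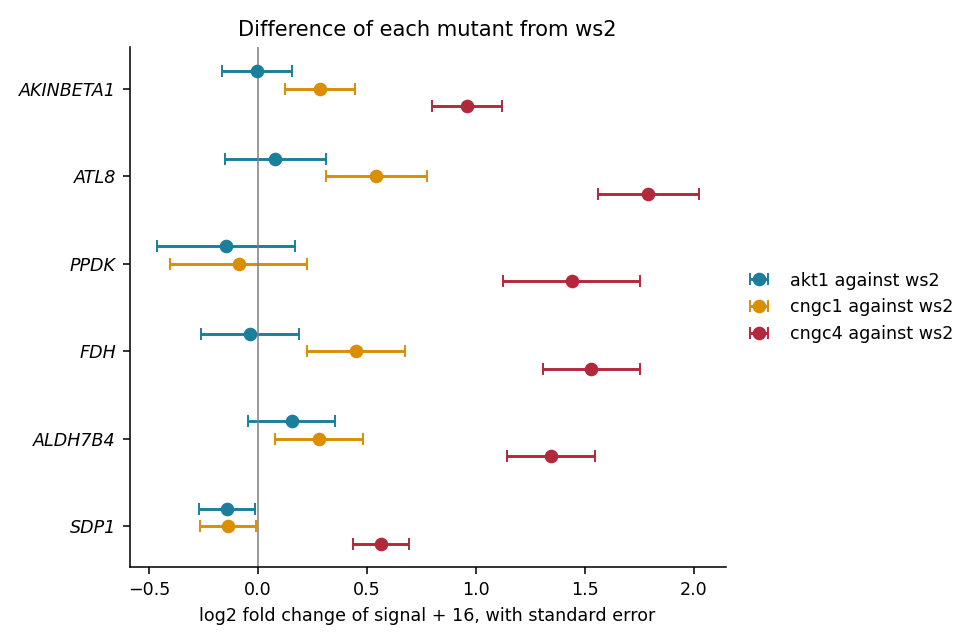
Log2 fold change of signal + 16 against ws2 (x axis) for each gene (y axis), with its standard error, in akt1, cngc1 and cngc4. The cngc4 values lie between 0.56 and 1.79, the cngc1 values between -0.14 and 0.54, and the akt1 values between -0.15 and 0.15.

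Within a genotype, the same array was often the high or the low one for several of the 6 genes. In cngc4, replicate 2 had the highest of the 3 signals for all 6 genes, with deviations from the group mean between 0.14 and 0.39 on the log2 scale. Over all probe sets tested, that array was the highest of its group for 29.2%. In akt1, replicate 2 had the lowest signal for all 6 genes, against 39.5% of all probe sets, and replicate 1 the highest for 4. In cngc1, replicate 3 had the lowest signal for 5 of 6 genes, against 33.6% of all probe sets, with a mean deviation of -0.39 and -1.05 for PPDK. AKINBETA1 was the exception there, at 0.00. In ws2 the 3 arrays differed less, with mean deviations over the 6 genes from -0.11 to 0.06, and SDP1 was highest on replicate 3, where 4 of the other genes were lowest.

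Some of these arrays also stood out in array readings, but not in the same direction. The cngc4 replicate 2 array had the highest GAPDH ratio of the 12 (1.25) and cngc1 replicate 3 the highest background, and akt1 replicate 2 had the highest actin ratio (2.06). The actin and GAPDH ratios were each highest of their genotype on cngc4 replicate 2 (1.94 and 1.25), where the 6 genes were highest. They were also highest of their genotype on akt1 replicate 2 (2.06 and 1.19), where the 6 genes were lowest. The part of these readings in the spread was not tested. Without cngc4 replicate 2 the median log2 fold change of the 6 genes in cngc4 against ws2 was 1.22, the lowest of the values with 1 array left out.

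**Figure D3:**
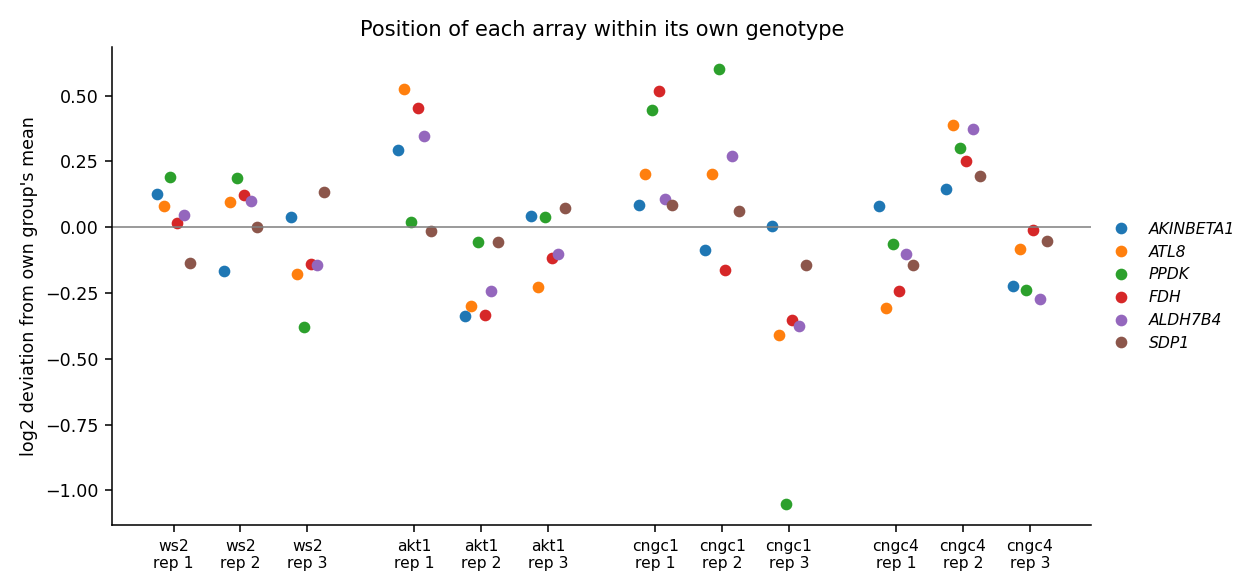
Deviation of log2(signal + 16) from the mean of the array's own genotype (y axis) for each of the 12 arrays (x axis), with 1 coloured point per gene. All 6 points lie above 0 for cngc4 replicate 2 and below 0 for akt1 replicate 2, and PPDK on cngc1 replicate 3 lies at -1.05.

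Not all 6 genes had the same profile over the 12 arrays. Likeness was measured as the root mean square difference, over the 12 arrays, between the log2 values of a pair of genes after each was centred on its own mean; it depends on the size of the fold as well as on its pattern. The closest pair was FDH and ATL8, which differed by 0.18. ALDH7B4 lay nearest to the mean profile of the 6, at 0.10. PPDK (0.33) and SDP1 (0.32) lay farthest from it, PPDK having the deep low in cngc1 replicate 3 and SDP1 the smallest fold.

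Among the 8126 other probe sets that name 1 gene and were tested, the 10 nearest to the mean profile of the 6 genes differed from it by 0.17 to 0.19. These were AT2G46220, AT3G26510, AT1G07040, AT5G56100, AT3G29240, AT1G10140, AT1G54740, AT3G60300, MCCA and AT3G10020, of which MCCA, a subunit of methylcrotonyl-CoA carboxylase in leucine breakdown, is the one with a gene name here. AT2G46220, the nearest, had mean signals of 210.5 in ws2, 239.5 in akt1, 221.4 in cngc1 and 615.3 in cngc4. MCCA read 120.1, 130.7, 155.5 and 431.6 in the same order. Both thus had cngc4 well above the other genotypes, which lay close together.

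For single genes, IVD, the isovaleryl-CoA dehydrogenase of leucine breakdown, was nearest both to FDH (0.14) and to ATL8 (0.18). For FDH, AT1G71695 came next (0.24). MCCA was among the 3 nearest to both as well (0.25 and 0.20), and ASPGB1, an asparaginase, followed it for ATL8 (0.22). Nearest to AKINBETA1 were AT5G65660 (0.14), the transcription factor gene bHLH121 (0.14) and AT1G01770 (0.15). PPDK had no profile as close, the nearest being AT5G64110 (0.23), AT5G66650 (0.24) and the defensin gene PDF1.4 (0.26). ALDH7B4 was nearest to AT3G26510 (0.17), AT1G10140 and AT2G46220, and SDP1 to AT1G27100 (0.10), AT5G65250 and AT4G03030.

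**Figure D4:**
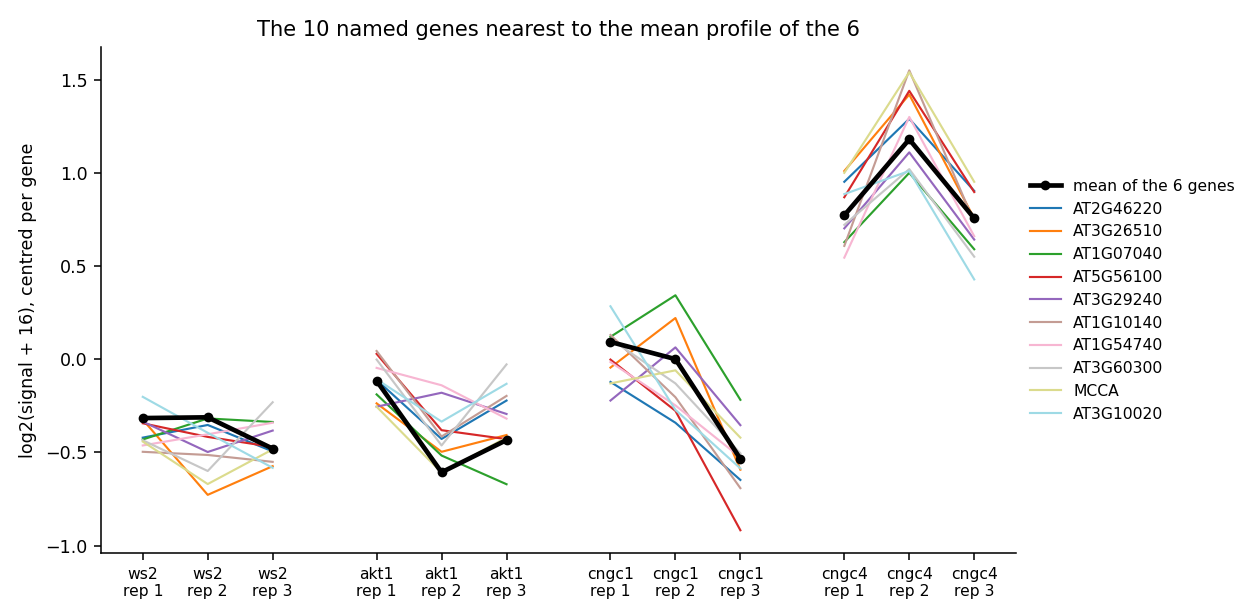
Log2(signal + 16) centred on each gene's mean over the 12 arrays (y axis), by array (x axis); lines join the arrays of a genotype for legibility only. The black line is the mean of the 6 genes and the coloured lines are the 10 named genes nearest to it, within 0.17 to 0.19 of it as a root mean square difference.

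Most measured relatives of the 6 genes did not pass the test between cngc4 and ws2. A gene that did not pass may still differ. In data simulated for this comparison, the fit called 17.6% of log2 changes of 0.5 and 93.2% of changes of 1. The relatives were taken from 12 lists of energy and carbon genes, which held 51 further genes named on the array, 44 of them tested. In cngc4 against ws2, 7 of the 44 rose, none fell and 37 did not pass, a share called of 15.9% beside 9.09% of all probe sets tested (limma, adjusted p under 0.05). The lists were drawn up with results of these data known, among them the rise of MCCA and MCCB, so this share is in part set by that choice and is no evidence about the lists. The median log2 fold change of the 44 was 0.10. Without cngc4 replicate 2 the count was 4, among all probe sets it fell to 322, and within unmarked or marked arrays it was 2 and 1. Against akt1 and against cngc1, 9 of the 44 rose each time, the same 7 with ALDH11A3 and ICL. Without cngc4 replicate 2 these counts were 5 and 4, and against cngc1 it was also 5 without cngc1 replicate 3. In cngc1 and akt1 against ws2, and in cngc1 against akt1, 0 of the 44 passed by limma.

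None of the other 3 tested SnRK1 genes passed in cngc4 against ws2. KINbeta3 (AT2G28060), a further beta-type subunit, differed by -0.13 ± 0.13 (SE) on the log2 scale, from means of 141 in ws2 and 128 in cngc4. KINbeta2 (AT4G16360) differed by 0.08 and AT1G15330 by -0.05. Their adjusted p-values by limma were 0.575, 0.763 and 0.855. AKINBETA1 was chosen with its difference known, so its contrast with these 3 was not tested. RAPTOR1, a partner of the growth kinase TOR that is active when energy is plentiful, had a log2 fold change of 0.04 (adjusted p = 0.806 by limma).

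Of 4 tested dark-induced and starvation genes besides PPDK and ATL8, 2 rose in cngc4. AT3G15450 rose from 1807 ± 143 in ws2 to 3091 ± 421 (SD, n = 3 each), or by 0.76 on the log2 scale (limma, adjusted p = 0.00955). AT5G66650 rose from 38.1 ± 4.65 to 114 ± 43.4, or by 1.21 on the log2 scale (limma, adjusted p = 0.0158). The arrays of cngc4 and ws2 did not overlap for either. Without cngc4 replicate 2 neither passed, with adjusted p = 0.0664 and adjusted p = 0.108 by limma, and AT5G66650 was also lost without ws2 replicate 1 (adjusted p = 0.0533), with no offset (adjusted p = 0.0601) and with no filter on low signal (adjusted p = 0.0509). Neither gene passed within unmarked or within marked arrays. The transcription factor gene BZIP53 (-0.13) and SAG101 (0.01), named for senescence, did not pass, and SAG29 was too weak to be tested. In the list around PPDK, PDC2, a pyruvate decarboxylase of fermentation, was the 1 other tested gene (0.68, limma adjusted p = 0.287).

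The relatives of FDH and most relatives of ALDH7B4 did not pass. Of 6 tested genes of formate and one-carbon folate metabolism, none passed in cngc4, with a median log2 fold change of -0.04; AT2G35120 had the smallest p (-0.37, limma adjusted p = 0.117). Of 7 tested aldehyde dehydrogenases, ALDH6B2, which acts in valine breakdown, rose by 0.68 on the log2 scale (limma, adjusted p = 0.0102), from 200 ± 9.20 to 334 ± 56.4 (SD, n = 3 each). Without cngc4 replicate 2 its adjusted p was 0.0752 by limma, and it did not pass within unmarked or within marked arrays. ALDH11A3 (0.33), ALDH10A8 (0.38) and ALDH10A9 (0.25) had non-overlapping, higher arrays in cngc4 and did not pass. ALDH22A1, ALDH3F1 (-0.20) and ALDH2C4 (0.16) overlapped with ws2.

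The route that follows SDP1 showed no call against ws2. Of 7 tested genes of oil breakdown and beta-oxidation none passed, with a median log2 fold change of 0.12; AIM1, a multifunctional enzyme of peroxisomal beta-oxidation, read 0.19 and the oil-body coat gene OLEO3 read -0.26. ICL, the isocitrate lyase of the glyoxylate cycle, varied widely between cngc4 arrays, with signals of 252, 125.5 and 32.5. Its ws2 arrays read 40.7, 40.3 and 59.7, its akt1 arrays 50.0, 12.9 and 4.8, and its cngc1 arrays 36.1, 19.1 and 3.1. The cngc4 arrays overlapped with those of each other genotype, while the cngc1 arrays all lay below the ws2 arrays. For cngc4 against ws2 the log2 difference was 0.98 ± 0.52 (SE; limma, adjusted p = 0.268). It passed against akt1 (1.84, adjusted p = 0.038) and cngc1 (1.91, adjusted p = 0.0456) by limma, but these calls were lost in 10 and 16 of 24 alternative settings, among them without cngc4 replicate 1 (adjusted p = 0.146 and adjusted p = 0.138), and several of its signals were below the 40th percentile of their arrays.

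Of the remaining energy and carbon lists, the amino acid one was the only one with genes that passed against ws2. It was drawn up with the rise of MCCA and MCCB known, so this contrast between lists is no evidence. ATL8 relatives read -0.39 for ATL4H and -0.12 for ATL5, and ATL63 was too weak to be tested. Of starch genes, PWD read 0.23 and AMY1 0.16, and the 1 sucrose-cleaving gene tested, AT1G62660, read 0.01; no gene of the trehalose phosphate list is named here. Of 10 tested genes of amino acid respiration 4 rose: MCCB (1.94), MCCA (1.70), IVD (1.62) and AT4G33150, annotated as lysine-ketoglutarate reductase (0.87). Of all probe sets, 4.69% were called higher. Within unmarked and within marked arrays, which leave 1 array in a group, IVD read 1.83 and 1.35. AT4G33150 read 0.94 and 0.70 there. The electron carriers that serve amino acid respiration, ETFBETA (0.39), ETFQO (0.41) and ETFALPHA (0.00), did not pass.

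**Figure D5:**
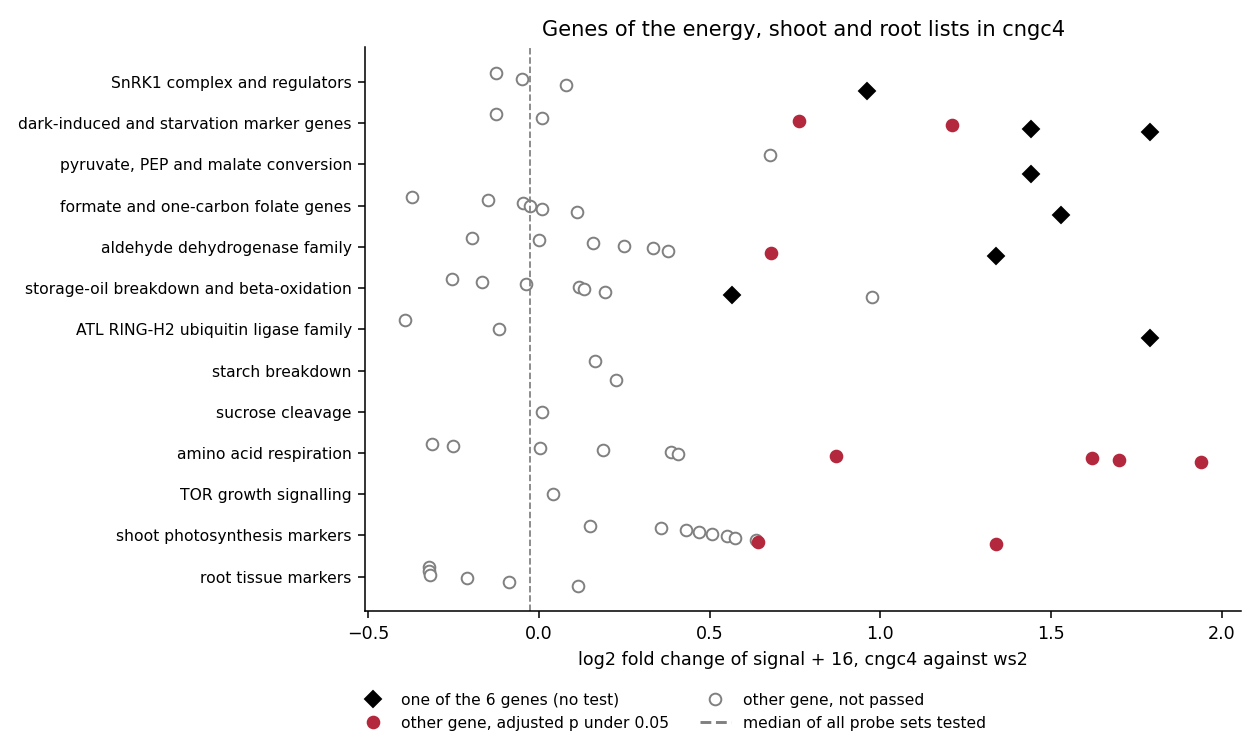
Log2 fold change of signal + 16 in cngc4 against ws2 (x axis) for each tested gene of the lists (y axis); black diamonds are the 6 genes, filled circles passed limma at an adjusted p under 0.05, open circles did not, and the dashed line is the median of all probe sets tested. The 6 genes were chosen with this comparison known, so where the black diamonds stand is no evidence about them. In the oil list ICL lies to the right of SDP1. The amino acid list holds no black diamond and 4 filled circles between 0.87 and 1.94. That list was drawn up with the rise of MCCA and MCCB known.

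Photosynthesis genes, used here as markers of shoot tissue, had a higher summed signal on the cngc4 arrays than on any other array. The summed signal of 11 such markers was 1023, 1448 and 1483 on the cngc4 arrays and 839.3, 935.7 and 575.6 on the ws2 arrays. On the akt1 arrays it ran from 598.4 to 649.4 and on the cngc1 arrays from 544.7 to 846.7. Of 10 tested markers 2 rose against ws2, LHCB4.1 (1.34) and CHLM (0.64), with a median of 0.53 over the list. Against akt1 7 of the 10 rose, with a median of 0.72, and against cngc1 2 rose, with a median of 0.63. Of all probe sets, 9.09%, 8.88% and 5.17% were called in these comparisons. Against akt1, alternative settings lost SBPASE in 11 of 24, and PSBY, PSBW and PRK in 6, 5 and 1 of 25. Against cngc1 PRK was lost in 11 of 25. LHCB4.1 was kept in all settings against both mutants, as were RCA and CHLM against akt1. LHCB4.2 was at or near 0, with a mean of 8.13 in cngc4 and 2.63 in ws2. Within cngc4, replicate 1 had the lowest marker sum and the lowest signal for 3 of the 6 genes, replicate 3 had the highest sum and the lowest signal for the other 3 genes, and replicate 2, just below replicate 3 in markers, was highest for all 6. In ws2 and cngc1 the array with the lowest marker sum, replicate 3 in each, was also the lowest for 4 and 5 of the 6 genes. In akt1, replicates 2 and 3 had nearly equal sums (598.4 and 598.8). Replicate 2 was the lowest there for all 6 genes and replicate 3 for 0. In akt1 the array with the highest sum, replicate 1, was the highest for 4 genes. The summed root markers overlapped, at 3343, 3521 and 2997 in cngc4 and 3368, 3442 and 3990 in ws2. In whole roots a change in the share of a cell type and a change of RNA per cell cannot be told apart, and the part of shoot tissue in the values of the 6 genes was not tested.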

How the data were processed

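Whole-root RNA of 4 genotypes was measured on 12 arrays; genotype and replicate come from the sample names. Per the labels' protocols, TRIzol-extracted RNA was biotin-labelled, and each array carries 22810 probe sets. The authors deposited a linear intensity, called signal, for every probe set. Its software was not given in the sources used here. Every array had a mean of 100 once 2% was trimmed at each end, so the values had been scaled before deposit.

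Signals were not normalized again; 16 was added before taking log2. Left out were 64 control probe sets and those above the 40th percentile on fewer than 3 arrays. A model of 4 genotype means over all arrays was fitted with limma 3.58.1 (R 4.3.3) (eBayes with trend, two-sided, Benjamini-Hochberg over 14745 probe sets, threshold 0.05). No exact permutation test was used, since 3 arrays per genotype allow no p below 0.1. The fit was tested on data simulated for cngc4 against ws2 in 10 runs, with 200 of 14745 probe sets changed. It called 17.6% of log2 changes of 0.5, 93.2% of changes of 1 and 100% of changes of 2. Figures used matplotlib 3.10.9.

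Gene names came from the array's annotation table, in which 13513 probe sets name 1 gene, and were updated through the gene table of TAIR10.1. As no genome build is named for the array, coordinates are left out. The 6 genes and the 14 gene lists (12 of energy and carbon genes, 1 of shoot and 1 of root markers) were chosen with earlier results of these data known. Where a list gene had several probe sets, the brightest on average stood for it. From the TOR list 1 locus was dropped, because the gene table does not tie it to TOR. Genes named are the 6, the nearest in profile (3 per gene and 10 for their mean), and per list up to 4 of smallest p in cngc4 against ws2; further list members were named after their values were seen.

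Same-numbered arrays of different genotypes were checked for pairing by correlating their deviations from group means: of 18 pairs 3 exceeded 0.1, the lowest being -0.17 and the highest 0.27, and same-numbered arrays were therefore treated as unpaired. No arrays held identical values. Alternatives were other normalizations, offsets, filters and eBayes settings, array weights, the replicate block, the repeat mark in the titles as a covariate or a split, fits of 2 groups, another call rule and leaving out each array.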

Additional observations from a re-analysis of the deposited data

How the results depend on the processing

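In the comparisons with cngc4, 446 of 456 recomputed log2 folds of the 6 genes moved by less than the spread between replicates, 10 moved by more and none changed sign. In the other comparisons no gene passed under any of the 450 recomputed values, and 29 of them, all from folds that did not pass, changed sign. The median fold of the 6 genes in cngc4 against ws2 was 1.04 with an offset of 64 and 1.22 to 1.51 with 1 array left out. The arrays limit the precision by their number, and the weak signals of PPDK limit it for that gene.

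Counts of probe sets called changed more. For cngc4 against ws2 (1340) the count was 813 with no filter, 2364 with array weights, 714 with the repeat mark as a covariate, 17 within unmarked and 5 within marked arrays, 259 at an unadjusted p under 0.05 with at least 2-fold, and 322 (without cngc4 replicate 2) to 1498 with 1 array left out; it was 669, 586 and 886 without ws2 replicates 1, 2 and 3. Of 44 energy genes (7 called) these settings called 2 within unmarked arrays, 1 within marked arrays, 4 by the unadjusted rule and 4 to 8 with 1 array left out. For cngc4 against akt1 (1310) the counts were 797 with no filter, 607 within unmarked arrays, 261 by the unadjusted rule and 304 to 1548 with 1 array left out, and for energy genes (9) 5 by the unadjusted rule and 5 to 10. For cngc4 against cngc1 (762) they were 402, 412, 226 and 129 to 871, with 341 from these groups alone, and for energy genes (9) 5 within unmarked arrays and 4 to 10. For cngc1 against ws2 (1) they were 21 by the unadjusted rule and 1 to 2, for akt1 against ws2 (0) 1 with array weights, 4 by the unadjusted rule and 0 to 1, and for cngc1 against akt1 (1) 4, 22 and 1 to 11. With 1 array left out, the count for cngc4 against ws2 differed by which array it was. It was 987 and 1089 without cngc4 replicates 1 and 3, beside 322 without replicate 2, and 1498 without cngc1 replicate 3. The cause of these changes was not tested.

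The folds that changed sign were, in cngc1 against ws2, PPDK with quantile normalization (0.0218), with array weights (0.00213) and over 1 array left out (-0.389 to 0.434), and SDP1 within unmarked arrays (0.000337). In akt1 against ws2 they were AKINBETA1 with arrays centred on their medians (0.0296) and over 1 array left out (-0.149 to 0.165), ATL8 with array weights (-0.0409), the repeat covariate (-0.113), unmarked arrays (-0.000214) and 1 array left out (-0.182 to 0.229), FDH (-0.262 to 0.132) and ALDH7B4 (-0.0186 to 0.276). In cngc1 against akt1 they were SDP1 with quantile normalization (-0.0315), with centred arrays (-0.0325) and 1 array left out (-0.0362 to 0.0783), PPDK with no offset (-0.0817) and 1 array left out (-0.241 to 0.582), and ALDH7B4 (-0.0102 to 0.313). The cause was not tested.

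Centring each array on its median gave 572 higher and 205 lower calls in cngc4 against cngc1, against 476 and 286. With the replicate number as a block, 1273 probe sets and 7 energy genes passed in cngc4 against ws2, and no call of the 6 genes in the comparisons without cngc4 changed. Same-numbered arrays were not shown to be pairs.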
